A study of Mus musculus with 7 samples.

Results

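The anterior Hox genes of paralogue groups 1 to 5 were examined in the embryonic outflow tract (OFT). The 9 genes followed were *Hoxa2*, *Hoxa3*, *Hoxa4*, *Hoxa5*, *Hoxb1*, *Hoxb2*, *Hoxb3*, *Hoxb4* and *Hoxb5*, chosen by name as genes linked to axial identity of the second heart field and neural crest. The normalized table listed 14732 genes and held 8 of the 9. It had no row named *Hoxb1*, so the level of that gene was not analysed here.

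Hox genes encode homeodomain transcription factors that lie in 4 clusters, and their order along a cluster follows the order of their expression along the head-to-tail axis. Retinoic acid switches on the genes at the 3′ end of each cluster early and far forward in the embryo, whereas genes at the 5′ end are kept for the trunk and limbs. In the heart-forming region, anterior Hox genes mark progenitors of the posterior second heart field, and in the hindbrain they pattern the neural crest that enters the pharyngeal arches and the OFT.

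The study compared E11.5 mouse OFT that carried 1 disrupted copy of *Gata6* with wild-type (WT) OFT by poly(A) RNA sequencing. The mutant allele, *Gata6 STOP*, is a frameshift made by CRISPR-Cas9 that leads to a premature stop codon, it was introduced in C57BL/6 embryos, and it is present in all cells of the embryo. The labels gave 3 control (WT) pools, numbered 3, 4 and 5, and 4 *Gata6 STOP/+* pools, numbered 1, 3, 4 and 5. The study's methods describe 3 pools per genotype, each made of 4 pairs of OFT, so each value is an average over embryos and the number of mutant pools differs between those sources.

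Depth, taken as whole reads recovered on the listed genes, was 20930875, 29035529 and 17783655 in control pools 3, 4 and 5. It was 28319373, 27519856, 24736761 and 34467710 in *Gata6 STOP/+* pools 1, 3, 4 and 5. Levels are given as CPM, the number of reads of a gene per 1000000 reads of the library, after TMM scaling (a trimmed-mean correction for library composition). The edited gene was read first. *Gata6* measured 315, 257 and 286 CPM in control pools 3, 4 and 5, and 268, 203, 219 and 217 CPM in *Gata6 STOP/+* pools 1, 3, 4 and 5. Mutant pool 1 lay above control pool 4, so the ranges of the genotypes met. *Gata6* was fitted at −0.34±0.0987 on the log_2_ scale (mutant minus control, ±standard error; limma adjusted *P*-value 0.389). Blocked by replicate number, the edgeR likelihood ratio test gave −0.42 (adjusted *P*-value 0.0164), and it was the only alternative that passed the threshold for *Gata6*. The exact two-sided permutation *P*-value was 0.114. Markers of the tissue were present: all 8 cardiomyocyte genes and all 8 cushion mesenchyme genes looked up were listed.

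Anterior Hox transcripts were present at low levels in every pool, and no Hox gene of groups 6 to 13 was listed. The annotation holds 24 protein-coding genes of groups 6 to 13, and 0 of them had a row. A gene was listed if it reached 1 CPM in at least 3 pools, so a gene without a row may still be expressed below that level. Besides *Hoxb1*, the anterior genes *Hoxd1* and *Hoxc5* had no row.

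The members sit in the HoxA and HoxB clusters. In GRCm38, the HoxA members lie on the minus strand of chromosome 6: *Hoxa2* at chr6:52162417-52164831, *Hoxa3* at chr6:52169062-52213336, *Hoxa4* at chr6:52189671-52191753 and *Hoxa5* at chr6:52201754-52204587. The annotated span of *Hoxa3* includes those of *Hoxa4* and *Hoxa5*. The HoxB members lie on the plus strand of chromosome 11: *Hoxb5* at chr11:96303336-96306121, *Hoxb4* at chr11:96318267-96321638, *Hoxb3* at chr11:96323326-96347930, *Hoxb2* at chr11:96350525-96354012 and *Hoxb1* at chr11:96365752-96368256.

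**Figure D1:**
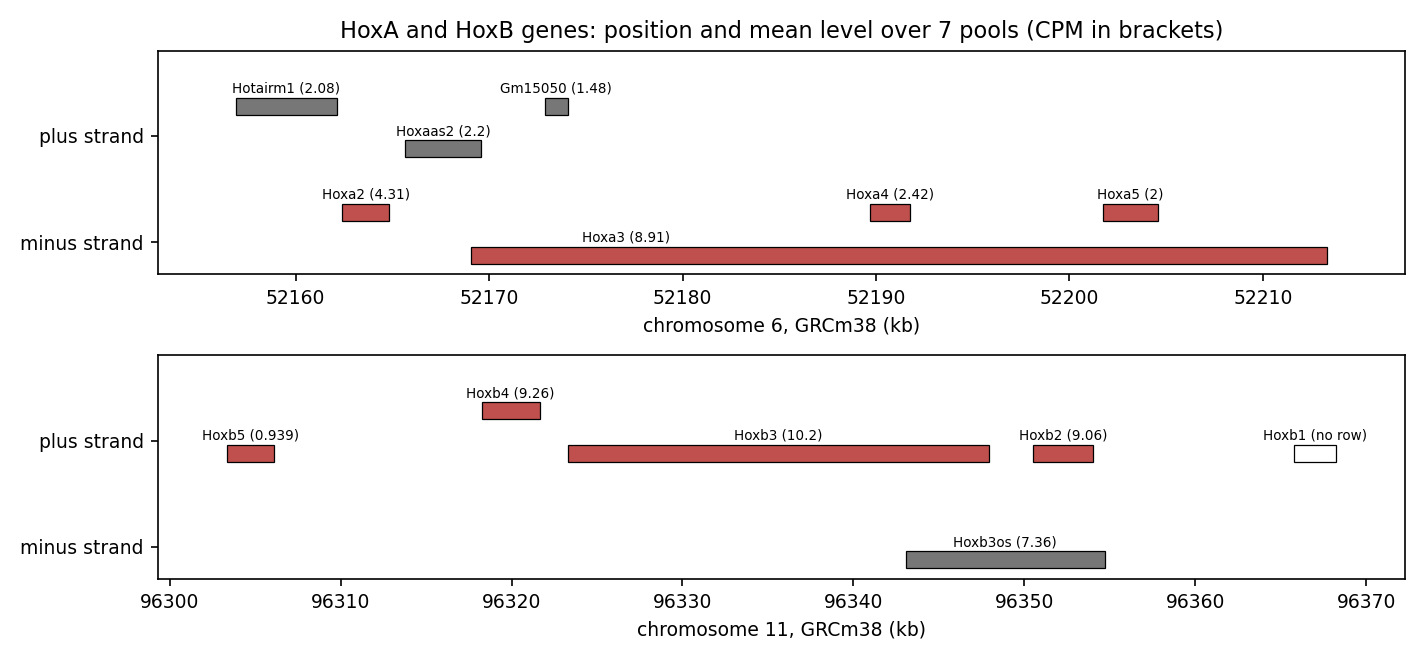
Position of HoxA genes (top) and HoxB genes (bottom) in GRCm38, in kilobases, by strand. Red bars are members with a row, the white bar is *Hoxb1*, grey bars are listed noncoding neighbours, and the number in brackets is the mean level over the 7 pools in CPM, from 0.939 for *Hoxb5* to 10.2 for *Hoxb3* among the members. Bars on a strand are staggered only to keep them apart.

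Levels between genes were compared per kilobase of merged annotated exons, over the 7 pools. *Hoxb4* had the highest level, 3.61±0.703 CPM per kilobase (mean±s.d.). *Hoxb2*, *Hoxa2* and *Hoxb3* followed at 2.60±0.420, 2.43±0.646 and 2.40±0.650 CPM per kilobase, and differed from each other by less than their spread. *Hoxa4*, *Hoxa3* and *Hoxa5* came next at 1.52±0.764, 1.48±0.349 and 1.07±0.556 CPM per kilobase, again within their spread. *Hoxb5* was lowest at 0.337±0.179 CPM per kilobase. With the longest coding transcript as the length, *Hoxb2* came first at 5.57 CPM per kilobase and *Hoxa3* moved up in the order to 3.44, so the order depends on which transcripts are made.

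The group 2 genes act farthest forward among the listed members. *Hoxa2*, which gives the neural crest of the second pharyngeal arch its identity, measured 2.54, 3.59 and 4.82 CPM in control pools 3, 4 and 5, and 6.21, 4.06, 4.11 and 4.83 CPM in *Gata6 STOP/+* pools 1, 3, 4 and 5. Mutant pool 1 was highest and control pool 3 lowest, and control pool 5 lay above mutant pools 3 and 4. The log_2_ fold change, computed on log_2_(CPM + 0.5), was 0.37 (95% confidence interval −0.082 to 0.83, limma adjusted *P*-value 0.698). *Hoxb2*, which patterns the hindbrain, measured 7.29, 8.59 and 10.5 CPM in the control pools, and 11.0, 7.72, 10.1 and 8.23 CPM in the *Gata6 STOP/+* pools, in the same order. Its pools were interleaved, and the log_2_ fold change was 0.074 (−0.26 to 0.41, limma adjusted *P*-value 0.930).

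In group 3, *Hoxa3* is needed for the structures of the third pharyngeal arch and pouch, including the thymus and the carotid artery. It measured 7.38, 8.11 and 9.13 CPM in the control pools, and 12.4, 5.80, 10.01 and 9.57 CPM in the *Gata6 STOP/+* pools. Here 3 mutant pools lay above every control pool, while mutant pool 3 was the lowest of the 7. The log_2_ fold change was 0.15 (−0.30 to 0.60, limma adjusted *P*-value 0.890). *Hoxb3*, which acts with *Hoxa3* in the pharyngeal region, measured 6.95, 8.14 and 11.6 CPM in the control pools, and 14.5, 7.57, 12.1 and 10.6 CPM in the *Gata6 STOP/+* pools. The lowest pool was again control pool 3 and the highest mutant pool 1. Its log_2_ fold change was 0.31 (−0.16 to 0.77, limma adjusted *P*-value 0.763).

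Group 4 genes help to set the identity of the cervical region. *Hoxa4* measured 0.767, 3.48 and 2.24 CPM in the control pools, and 3.58, 1.09, 3.74 and 2.06 CPM in the *Gata6 STOP/+* pools. Control pool 4 stood with mutant pools 1 and 4 at the top, and control pool 3 with mutant pool 3 at the bottom, which left a fitted difference of 0.27 on the log_2_ scale (standard error 0.413, limma adjusted *P*-value 0.899). *Hoxb4* measured 7.10, 8.87 and 9.86 CPM in the control pools, and 11.9, 7.14, 10.9 and 9.04 CPM in the *Gata6 STOP/+* pools. Control pool 3 and mutant pool 3 were nearly equal at the bottom, and the log_2_ fold change was 0.16 (−0.22 to 0.54, limma adjusted *P*-value 0.849).

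Group 5 had the lowest levels. *Hoxa5*, which is required for the development of the lung and trachea, measured 0.815, 1.90 and 2.07 CPM in the control pools, and 3.30, 0.978, 3.46 and 1.48 CPM in the *Gata6 STOP/+* pools. Mutant pools 1 and 4 were highest, whereas mutant pools 3 and 5 lay below control pools 4 and 5. The log_2_ fold change was 0.36 (−0.45 to 1.17, limma adjusted *P*-value 0.839). *Hoxb5*, a factor of vagal and enteric neural crest, measured 0.240, 0.690 and 1.62 CPM in the control pools, and 1.09, 0.435, 1.22 and 1.28 CPM in the *Gata6 STOP/+* pools. Control pools were both the lowest and the highest, and the value in control pool 3 rested on 5 reads. Its log_2_ fold change was 0.24 (−0.55 to 1.04, limma adjusted *P*-value 0.895).

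**Figure D2:**
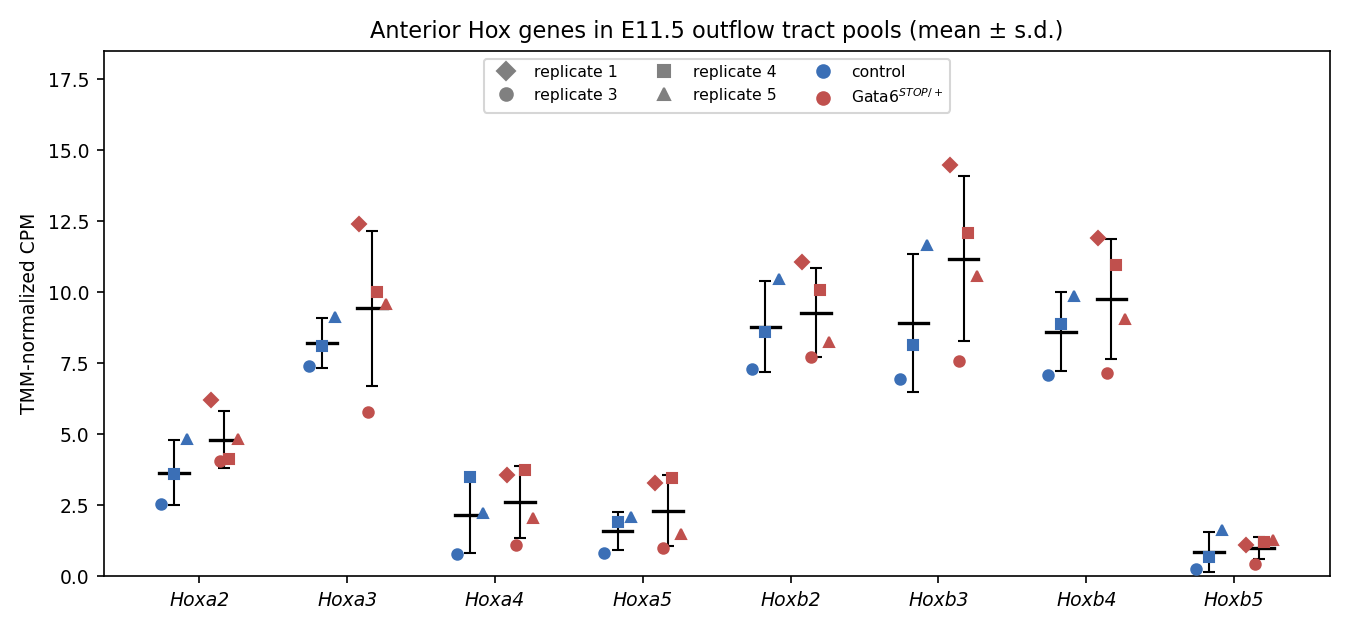
Level of each listed member in TMM-normalized CPM (vertical axis, from 0) in the 3 control pools (blue) and the 4 *Gata6 STOP/+* pools (red). Symbols give the replicate number, horizontal lines the group mean and error bars the s.d.; the groups overlap for all 8 genes.

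At an adjusted *P*-value of 0.05 over all 14732 genes, limma called none of the 8 members, and the background share called was 0%. An unadjusted *P*-value under 0.05 was reached by 0 of the 8, against 8.06% of all genes (1187 genes). Every mutant pool lay above every control pool for 0 of the 8, against 4.31% of all genes, and below for 0 of the 8, against 4.16%. On recovered whole reads, the edgeR quasi-likelihood test called 0 genes, DESeq2 called 88, and the edgeR likelihood ratio test called 105 (0.713% of all genes), with no member among them. The exact two-sided permutation *P*-values of the members ran from 0.229 to 0.686, where 0.0571 is the smallest that 35 splits allow. In bulk tissue, fewer cells of a type and less RNA per cell cannot be told apart.

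The 8 fitted differences were nevertheless all positive, with a median log_2_ fold change of 0.26, although those of *Hoxa4*, *Hoxb2* and *Hoxb5* turned negative once control pool 3 was left out (−0.19, −0.046 and −0.12), which brought the median to 0.043. Without mutant pool 1 the median was 0.14, with *Hoxb2* at −0.011 and *Hoxa3* at 0.0091, so the shared sign rests in part on single pools. Across all genes the median was −0.00073, and 49.8% were higher in the mutant. The 8 members are not independent of each other, because they followed a shared pattern from pool to pool.

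Low pools were found in both genotypes, while most of the highest were mutant. Control pool 3 was among the 2 lowest pools for 8 of 8 members and the lowest for 7. *Gata6 STOP/+* pool 3 was among the 2 lowest for 7 of 8. At the other end, *Gata6 STOP/+* pool 1 was among the 2 highest for 7 members and *Gata6 STOP/+* pool 4 for 5. Whether this pattern depends on genotype was not tested.

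Summed over the 8 members, the level was 33.1, 43.4 and 51.9 CPM in control pools 3, 4 and 5, and 64.0, 34.8, 55.6 and 47.1 CPM in *Gata6 STOP/+* pools 1, 3, 4 and 5. The group means were 42.8±9.40 and 50.4±12.5 CPM (mean±s.d., *n*=3 and 4), a gap smaller than the s.d. of either group. In each cluster the mean was likewise higher over the mutant pools, by less than the s.d. of either group. The HoxA members averaged 15.6±3.60 CPM in sum over the control pools against 19.2±5.73 CPM over the mutant pools, and the HoxB members 27.2±6.06 and 31.2±6.76 CPM, respectively. Averaged over the members, the deviation from each gene's own mean was −0.59, −0.028 and 0.20 on the log_2_ scale in the control pools, and 0.47, −0.43, 0.33 and 0.048 in the *Gata6 STOP/+* pools.

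The members differed in how far they spread between pools. The coefficient of variation over the 7 pools was lowest for *Hoxb2*, at 16.2% where counting alone gives 6.66%. It was highest for *Hoxb5*, at 53.1% against 20.8% from counting. *Hoxa4* and *Hoxa5* also varied widely, at 50.2% and 52.2%, with the highest pool 4.88 and 4.24 times the lowest. *Hoxb4*, a paralogue of *Hoxa4*, varied by only 1.68 times. Compared with genes whose mean level lay within 1.5-fold, the coefficient of variation of *Hoxa4* stood at percentile 94.6, that of *Hoxa5* at 94.8 and that of *Hoxb3* at 95.1, whereas *Hoxb2* stood at 75.8.

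The relative contribution of the main genes was steady while the total moved. *Hoxb3* made up 21.6±1.35% of the summed CPM (mean±s.d. over 7 pools), *Hoxb4* 18.6% to 21.4% (mean 19.8%), *Hoxb2* 19.6±2.04% and *Hoxa3* 19.0±1.89%. These shares are of read numbers and were not corrected for gene length. *Hoxa4* contributed between 2.32% in control pool 3 and 8.04% in control pool 4.

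**Figure D3:**
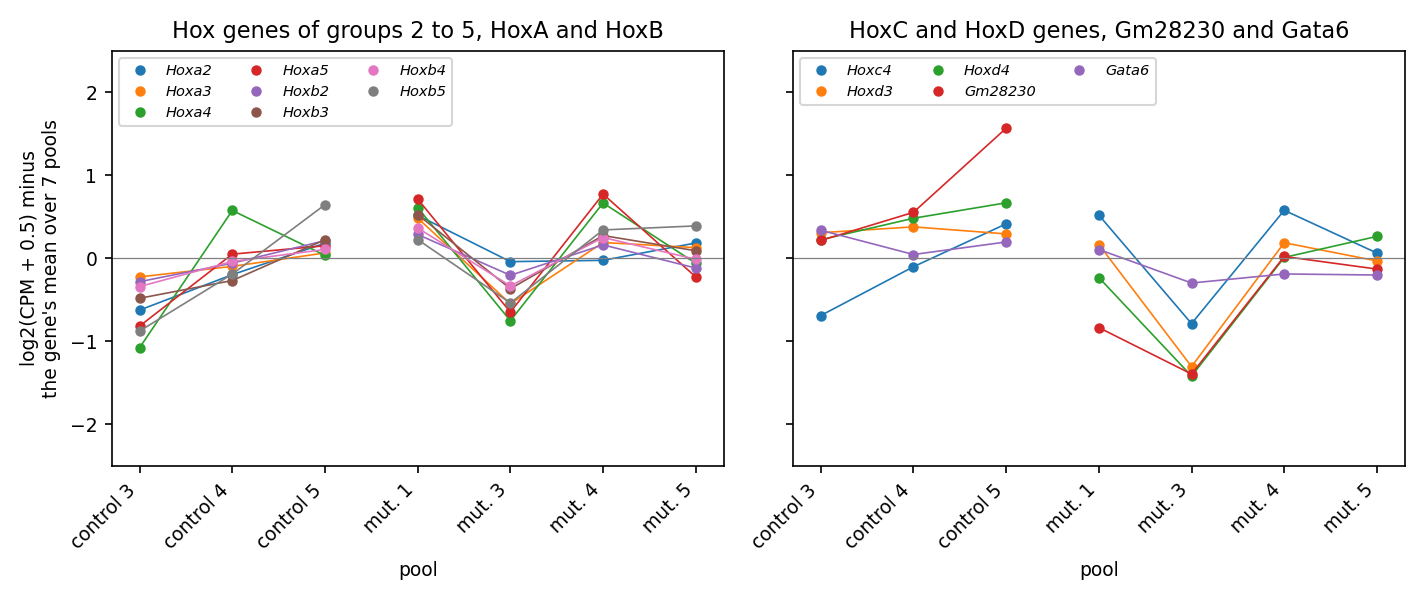
Log_2_(CPM + 0.5) of each gene minus its mean over the 7 pools (vertical axis), by pool (horizontal axis), for the 8 listed members (left) and for *Hoxc4*, *Hoxd3*, *Hoxd4*, *Gm28230* and *Gata6* (right). Lines only join the points of a gene within a genotype; the members average −0.59 in control pool 3 and −0.43 in *Gata6 STOP/+* pool 3, while *Hoxd3*, *Hoxd4* and *Gm28230* dip in *Gata6 STOP/+* pool 3 but not in control pool 3.

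Other genes of the clusters either shared this pattern or departed from it. The distance from the members' mean profile was taken as the root-mean-square difference over the 7 pools on the centred log_2_ scale. *Hoxaas2*, a noncoding gene that runs opposite to *Hoxa3*, lay at 0.123, and *Hoxc4* at 0.190. The other listed noncoding neighbours, *Hoxb3os*, *Hotairm1* and *Gm15050*, had log_2_ fold changes of 0.17, 0.054 and −0.27, with overlapping groups.

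The HoxD genes differed from the HoxA and HoxB members in the sign of the fitted difference, although the difference between clusters was not tested. *Hoxd3* measured 9.11, 9.59 and 9.02 CPM in the control pools, and 8.21, 2.64, 8.34 and 7.09 CPM in the *Gata6 STOP/+* pools. Every mutant pool lay below every control pool, with pool 3 far below the rest. The log_2_ fold change was −0.57 (limma adjusted *P*-value 0.681), and the exact permutation *P*-value of 0.0571 is the smallest possible here. Without mutant pool 3 the log_2_ fold change of *Hoxd3* was −0.22. *Hoxd4* measured 1.97, 2.45 and 2.86 CPM in the control pools, and 1.30, 0.290, 1.63 and 2.04 CPM in the *Gata6 STOP/+* pools. Mutant pool 5 lay above control pool 3, and the log_2_ fold change was −0.80 (limma adjusted *P*-value 0.598), or −0.44 without mutant pool 3.

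*Gm28230*, a gene model that shares exons with both *Hoxd3* and *Hoxd4*, measured 2.35, 3.11 and 6.78 CPM in the control pools, and 0.877, 0.435, 1.99 and 1.74 CPM in the *Gata6 STOP/+* pools. All mutant pools were below all control pools, and the log_2_ fold change was −1.36 (limma adjusted *P*-value 0.360, range over the alternatives 0.00727 to 0.682). These 3 rows compete for reads: 59.7% of the 60-base stretches of *Hoxd3* and 45.6% of those of *Hoxd4* also occur in another gene, so their separate levels are uncertain. Their sum was 13.4, 15.1 and 18.6 CPM in the control pools, and 10.4, 3.37, 12.0 and 10.9 CPM in the *Gata6 STOP/+* pools, again with no overlap.

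The members were less exposed to such sharing. No 60-base stretch of *Hoxa4*, *Hoxa5*, *Hoxb2*, *Hoxb3*, *Hoxb4* or *Hoxb5* occurred in another gene. For *Hoxa2* and *Hoxa3* the share was 12.2% and 7.11%, all with the gene model *Gm28308*, which had no row. No stretch was shared with a Hox gene of another cluster. On the opposite strand, *Hoxb3os* overlaps 52.9% of the exon bases of *Hoxb3* and 27.3% of those of *Hoxb2*. The library kit kept strand, but the strand setting of the counting is not given in the sources used here, so reads of *Hoxb3*, *Hoxb2* and *Hoxb3os* may not be fully separated.

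Of genes outside the Hox clusters with a mean of at least 5 CPM (11620 genes), *Lrig3*, *Nr2f1*, *Osr1*, *Gm37758* and *Zfp882* had the profiles nearest to the members' mean over the 7 pools. Their root-mean-square differences were 0.110, 0.134, 0.139, 0.142 and 0.1502, where the median gene was at 0.375. *Nr2f1*, a nuclear receptor gene, measured 15.5, 21.9 and 23.6 CPM in the control pools, and 30.2, 20.8, 29.4 and 25.1 CPM in the *Gata6 STOP/+* pools. *Osr1*, a gene of the posterior second heart field, measured 5.42, 6.56 and 8.85 CPM in the control pools, and 11.7, 6.23, 8.30 and 8.17 CPM in the *Gata6 STOP/+* pools. These genes were picked for their likeness to the members, so the likeness is no separate result.

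HOX proteins bind DNA together with cofactors of the TALE homeodomain class. *Pknox2*, a gene of that class, measured 34.7, 32.2 and 31.0 CPM in the control pools, and 35.4, 25.4, 28.1 and 26.4 CPM in the *Gata6 STOP/+* pools. Mutant pool 1 was the highest of the 7, and the fitted difference was −0.19 on the log_2_ scale (limma adjusted *P*-value 0.710). *Meis1*, named after its values were seen because its groups did not overlap, measured 82.6, 83.3 and 81.1 CPM in the control pools, and 90.8, 91.1, 86.6 and 90.0 CPM in the *Gata6 STOP/+* pools, a fitted difference of 0.12 (limma adjusted *P*-value 0.598). In control pool 3, where the Hox members were low, *Pknox2* lay above the other control pools and *Meis1* lay between them.

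Retinoic acid is the best known inducer of anterior Hox genes. Of 19 genes for its synthesis, binding, breakdown and receptors, 16 were listed, and *Aldh1a3*, *Cyp26a1* and *Cyp26c1* were not. Positive fold changes were found for 9 and negative ones for 7, the median was 0.012, and limma called none, although 6 of the 16 had an unadjusted *P*-value under 0.05, against 8.06% of all genes. *Cyp26b1*, which breaks retinoic acid down, measured 36.0, 27.8 and 26.6 CPM in the control pools, and 52.7, 39.0, 52.9 and 50.6 CPM in the *Gata6 STOP/+* pools. *Rdh10*, which makes its precursor, measured 6.23, 8.66 and 9.80 CPM in the control pools, and 15.2, 10.3, 11.4 and 11.9 CPM in the *Gata6 STOP/+* pools. For both genes every mutant pool exceeded every control pool, with fitted differences of 0.69 and 0.55 on the log_2_ scale (limma adjusted *P*-values 0.186 and 0.400). *Rdh10* was also lowest in control pool 3 and highest in mutant pool 1.

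Among the receptor and binding genes, named after their values were seen because their groups did not overlap, *Crabp2* had a log_2_ fold change of 0.36, *Rarb* of −0.21 and *Rarg* of −0.29. *Rarb* measured 37.6, 37.7 and 42.5 CPM in the control pools, and 37.3, 31.6, 32.1 and 34.2 CPM in the *Gata6 STOP/+* pools. The gap between mutant pool 1 and control pool 3 was small. The limma adjusted *P*-values of *Crabp2*, *Rarb* and *Rarg* were 0.419, 0.525 and 0.590. Summed, the retinoic acid genes gave 548, 492 and 521 CPM in the control pools, and 535, 506, 512 and 544 CPM in the *Gata6 STOP/+* pools. Their part in the level of the Hox genes was not tested.

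Among regulators of anterior Hox genes, including Polycomb and Trithorax genes, 11 were listed. *Cdx1*, *Cdx2*, *Cdx4*, *Egr2* and *Gbx2* had no row. Positive fold changes were found for 10 and a negative one for 1, with a median of 0.079 and none called by limma. *Suz12*, a Polycomb subunit gene, and *Hmga2* had the largest differences, 0.15 and 0.14 on the log_2_ scale. Of 20 reported Hox targets, 16 were listed, with 9 positive and 7 negative fold changes, a median of 0.023 and none called by limma. *Robo2*, a guidance receptor gene, measured 146, 106 and 109 CPM in the control pools, and 77.2, 55.8, 67.3 and 62.7 CPM in the *Gata6 STOP/+* pools. Every mutant pool was below every control pool, and the log_2_ fold change of *Robo2* was −0.86 (limma adjusted *P*-value 0.0970), while that of *Eya1* was 0.72 (limma adjusted *P*-value 0.534).

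The cellular make-up of the pools could be followed by marker lists. Cardiomyocyte genes (8 of 8 listed, most abundant *Myh7*) summed to 22801, 21856 and 20259.6 CPM in the control pools, and 16759.5, 23565, 21308 and 20785 CPM in the *Gata6 STOP/+* pools. The lowest sum was in mutant pool 1, where most Hox members were highest, and the highest was in mutant pool 3, where they were low. Control pool 3 had the next highest sum. Fold changes were positive for 3 and negative for 5, with a median of −0.059. The part of cardiomyocyte content in the Hox pattern was not tested.

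Second heart field genes (8 of 9 listed, most abundant *Hand2*, no row for *Fgf8*) summed to 407, 379 and 402 CPM in the control pools, and 458, 418, 433 and 404 CPM in the *Gata6 STOP/+* pools. *Hand2* made up most of each sum. Averaged over the 8 listed genes, the deviation from each gene's mean was −0.28, −0.10 and −0.14 (log_2_ scale) in the control pools. It was 0.21, 0.085, 0.0024 and 0.22 in the *Gata6 STOP/+* pools, in the same order. All 8 genes had a positive fold change, with a median of 0.27 and none called by limma. *Isl1* measured 37.5, 34.6 and 42.4 CPM in the control pools, and 70.5, 47.8, 55.4 and 42.3 CPM in the *Gata6 STOP/+* pools. It was highest in mutant pool 1, and control pool 5 and mutant pool 5 were level. Posterior second heart field genes (6 of 8 listed, most abundant *Aldh1a2*, no row for *Osr2* or *Foxf2*) summed to 72.4, 89.1 and 88.8 CPM in the control pools, and 76.6, 112, 70.4 and 100.0 CPM in the *Gata6 STOP/+* pools. Fold changes were positive for 4 and negative for 2, with a median of 0.17. The sums were highest in mutant pool 3, where the Hox members were low, and *Aldh1a2* gave 67.1 CPM of the 112 there. *Aldh1a2*, *Tbx5* and *Wnt2* were each highest in that pool, whereas *Osr1* was low there at 6.23 CPM. Averaged over the genes as the deviation from each gene's mean on the log_2_ scale, mutant pool 3 was also highest (0.21). Control pool 3, where the Hox members were low too, was lowest on that scale (−0.32). The part of these genes in the Hox levels was not tested.

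Neural crest and glial genes (9 of 11 listed, most abundant *Ets1*, no row for *Foxd3* or *Pax3*) summed to 394, 328 and 344 CPM in the control pools, and 342, 286, 319 and 312 CPM in the *Gata6 STOP/+* pools. Of the 9, 2 had a positive and 7 a negative fold change, with a median of −0.16 and none called by limma, and *Erbb3* had the largest difference, −0.39 on the log_2_ scale (limma adjusted *P*-value 0.419). The sums were lowest in mutant pool 3 and highest in control pool 3, the pools in which the Hox members were both low. Averaged over the genes as the deviation from each gene's mean on the log_2_ scale, mutant pool 3 was again lowest (−0.24). Control pool 3 was not highest on that scale, at 0.0062 against 0.11 and 0.10 in control pools 4 and 5. Pharyngeal arch mesenchyme genes (8 of 8 listed, most abundant *Hand2*) summed to 413, 339 and 377 CPM in the control pools, and 396, 361, 393 and 367 CPM in the *Gata6 STOP/+* pools. Fold changes were positive for 5 and negative for 3, with a median of 0.013. *Barx1* had the largest difference of that list, 1.08 on the log_2_ scale (limma adjusted *P*-value 0.0970). The part of either population in the Hox pattern was not tested.

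Neighbouring tissue that expresses anterior Hox genes was looked for as well. Of 9 hindbrain and spinal cord genes, 3 were listed, and *Sox1*, *Nkx6-1*, *Olig2*, *Lhx1*, *Lhx5* and *Pax2* had no row. The listed genes were *Nes*, the most abundant and also made outside the nervous system, *Irx3* (mean 8.40 CPM) and *Pax6* (mean 1.997 CPM). The list summed to 396, 331 and 372 CPM in the control pools, and 358, 347, 394 and 358 CPM in the *Gata6 STOP/+* pools. Of 11 pharyngeal and foregut epithelium genes, 3 were listed, with *Krt8* the most abundant and *Sox2* at a mean of 1.57 CPM, and *Epcam*, *Cdh1*, *Foxa2*, *Foxa1*, *Nkx2-1*, *Pax1*, *Pax9* and *Shh* had no row. Their sum was 111, 71.0 and 97.8 CPM in the control pools, and 85.7, 118, 106 and 89.1 CPM in the *Gata6 STOP/+* pools. *Pax6* and *Sox2* were at about the level of *Hoxa5*, so a small amount of neighbouring tissue is not excluded by these lists.

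Because the listed members moved together between pools, the sequences around the starts of the members were searched for shared letters. RefSeq promoter windows (GRCm38.p6, 250 bases before to 50 after the start) were matched for 5 of the 9 members: *Hoxa2*, *Hoxa3*, *Hoxa5*, *Hoxb1* and *Hoxb4*. The search covered both strands for AGGTCA, a core site of retinoid receptors, for TGATNNAT, a HOX-PBX composite, and for the GATA sequences, namely AGATAA as well as TGATAA along with AGATAG besides TGATAG, of which TGATAA can overlap TGATNNAT. AGGTCA was found in 2 of the 5 windows (*Hoxa5*, where it lies after the start, and *Hoxb4*, where it lies before it) and in 16.3% of the 32851 windows of all genes. Outside the members, the windows of *Hoxc4*, *Hoxd3* and *Hoxd4* also held AGGTCA before the start. TGATNNAT was found in 2 of the 5 (*Hoxa2* and *Hoxb1*) and in 8.85% of all windows. *Hoxb1* had no row, so it is not among the members seen to move together. The GATA sequences were found in 0 of the 5 and in 29.8% of all windows. A match describes letters and not a bound site.

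The 250 bases before the start are shown for *Hoxa2*, the member with the largest fold change in the main fit, on the minus strand at chr6:52164832-52165081, and for *Hoxb4*, the member with the highest level per kilobase of merged exons, on the plus strand at chr11:96318017-96318266. Capitals mark TGATNNAT, read from the opposite strand, in *Hoxa2* and AGGTCA, read from the opposite strand, in *Hoxb4*.
Hoxa2: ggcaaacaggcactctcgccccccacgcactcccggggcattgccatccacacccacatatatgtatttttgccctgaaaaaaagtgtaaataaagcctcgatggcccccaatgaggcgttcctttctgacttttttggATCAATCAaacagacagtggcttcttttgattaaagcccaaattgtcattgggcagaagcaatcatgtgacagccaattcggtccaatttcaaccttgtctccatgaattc
Hoxb4: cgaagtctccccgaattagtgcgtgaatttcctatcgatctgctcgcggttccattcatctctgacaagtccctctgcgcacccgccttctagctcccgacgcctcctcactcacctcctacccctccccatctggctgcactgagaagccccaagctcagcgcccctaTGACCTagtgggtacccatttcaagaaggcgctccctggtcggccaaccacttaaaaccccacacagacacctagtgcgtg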

How the data were processed

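Poly(A) RNA of pooled E11.5 OFT was made into libraries with a strand-keeping kit and sequenced as 60-base single-end reads. According to their methods, the authors removed adapters (Cutadapt 1.18), then aligned and quantified the reads (RSEM 1.2.3, GRCm38, Ensembl genes). They kept genes with 1 CPM in at least 3 samples and scaled libraries by TMM (edgeR 3.32.1, R version 4.0.3). The deposited table holds CPM relative to library sizes after TMM adjustment. The strand setting of RSEM is not given in the sources used here.

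From these values, whole reads were recovered by dividing each column by the worth of 1 read, and 100% of values were whole within 0.01 reads in each of the 7 libraries. The recovered depth ran from 17783655 to 34467710 reads, and 1 read was worth 0.0291 to 0.0560 CPM, so levels under 1 CPM rest on few reads.

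All 7 pools entered 1 fit of limma 3.58.1 (R 4.3.3) with a mean-variance trend on log_2_(CPM + 0.5), two-sided, with Benjamini-Hochberg adjustment over 14732 genes and a threshold of 0.05. A constant of 0.5 shrinks the fold changes of genes with low CPM. Exact permutation tests used all 35 splits of 7 pools into 4 and 3 (scipy 1.17.1). Alternatives were other constants, a mean of at least 5 CPM, median-of-ratios scaling, a replicate block, edgeR 4.0.16 and DESeq2 1.42.0 on recovered reads, and leaving out each pool. The fits were tested on simulated data. Positions, exon lengths and shared 60-base stretches came from GENCODE release M21, and promoter windows from RefSeq.

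Named genes were the 9 members, *Gata6*, other genes of the Hox clusters, the largest differences of the lists, and the 5 nearest profiles. The members and lists were chosen with earlier results of these data known. Some planned genes are not reported here. Nothing in the labels ties a pool to a litter or day, so *P*-values measure the spread between these pools.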

Additional observations from a re-analysis of the deposited data

How the results depend on the processing

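No member passed the threshold under any alternative, and the lowest adjusted *P*-value over their 124 alternative values was 0.479. The direction held in 118 of these and turned in 6, for 3 genes. Without control replicate 3, the log_2_ fold change was −0.19 for *Hoxa4*, −0.046 for *Hoxb2* and −0.12 for *Hoxb5*, and also −0.063 for *Hoxc4*. Without *Gata6 STOP/+* replicate 1 it was −0.011 for *Hoxb2* and −0.041 for *Hotairm1*. The median over the members, 0.26 in the main fit, ran from 0.043 (without control replicate 3) to 0.45 (without *Gata6 STOP/+* replicate 3). Leaving out each pool gave 0.17 to 0.57 for *Hoxa2*, 0.0091 to 0.35 for *Hoxa3*, −0.19 to 0.64 for *Hoxa4*, 0.053 to 0.63 for *Hoxa5*, −0.046 to 0.20 for *Hoxb2*, 0.15 to 0.51 for *Hoxb3*, 0.034 to 0.29 for *Hoxb4* and −0.12 to 0.64 for *Hoxb5*. It gave −0.041 to 0.14 for *Hotairm1*, −0.063 to 0.51 for *Hoxc4*, −0.72 to −0.22 for *Hoxd3* and −1.005 to −0.44 for *Hoxd4*, whose values nearest 0 were those without *Gata6 STOP/+* replicate 3. *Hoxa2* had the largest fold change of the members in the main fit, but with a constant of 0.1 *Hoxa5* (0.43) and *Hoxb5* (0.42) exceeded it (0.41). On recovered reads *Hoxa5* exceeded it by more, at 0.52 against 0.40 with the edgeR quasi-likelihood test and 0.53 against 0.40 with the likelihood ratio test and with DESeq2.

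With the replicate number as a block, limma gave −0.011 for *Hoxb2* and −0.041 for *Hotairm1*, and the edgeR likelihood ratio test with the block gave −0.011 and −0.046. Pools with the same number did not deviate together (correlations −0.0465, −0.266 and −0.0175 over 11627 genes for numbers 3, 4 and 5), so the numbers were not taken as pairs. *Gata6 STOP/+* replicate 1 is alone with its number and adds nothing to the blocked fold changes.

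Over all genes, limma called 0 (1187 at an unadjusted *P*-value under 0.05), 1 with a constant of 0.1, 14 with the block, and 0 to 13 without 1 pool, the highest without control replicate 4. On recovered reads the edgeR quasi-likelihood test called 0, the likelihood ratio test 105, the same with the block 118, and DESeq2 88. The causes were not tested. *Gm28230* passed the threshold with DESeq2 (adjusted *P*-value 0.0494) and with the blocked likelihood ratio test (0.00727), as did *Gata6* with the latter (0.0164, range over its alternatives 0.0164 to 0.730). Depth limits *Hoxb5* most, with 5 to 44 reads per pool.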

Other observations

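The remaining marker lists were read in the same fit, and limma called no gene in any of them. Lung and tracheal mesenchyme genes (5 of 5 listed) showed a log_2_ fold change of 0.20 at the median, with *Foxf1* at 1.14, *Wnt2* at 0.42, *Tbx5* at −0.10 and *Tbx4* at −0.11. *Foxf1* measured 0.671, 0.621 and 0.784 CPM in the control pools, and 2.98, 1.30, 2.93 and 1.69 CPM in the *Gata6 STOP/+* pools, so every mutant pool lay above every control pool (limma adjusted *P*-value 0.243). All its control values were under 1 CPM, so *Foxf1* met the filter for a row only through the mutant pools. Its lack of overlap is therefore no separate result. The summed level of the list was highest in *Gata6 STOP/+* pool 3, at 30.0 CPM.

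Smooth muscle genes (5 of 5 listed) had a median of 0.16, endothelial and endocardial genes (7 of 7) 0.15, and epicardial genes (6 of 6) 0.028. Cushion mesenchyme genes (8 of 8) had 4 positive and 4 negative fold changes, with *Postn* at −0.47. Neuronal genes (9 of 11, no row for *Phox2a* or *Prph*) had a median of 0.088, with *Hand1*, which is also a cardiac gene, at 0.41, *Stmn2* at 0.40, *Elavl3* at −0.32 and *Tubb3* at −0.39. Red cell genes (8 of 8) had a median of 0.37, and their sum ran from 2273 CPM in control pool 4 to 6962 CPM in *Gata6 STOP/+* pool 5. Macrophage genes (6 of 6) had a median of −0.12, and their sum was highest in *Gata6 STOP/+* pool 3 at 76.7 CPM. Of 10 somite and limb genes, 2 were listed, *Meox1* and *Tcf15*.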
